A study of Mus musculus with 6 samples.

Results

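The retinoic acid synthesis and response genes examined here are 9 genes of the cardiac outflow tract (OFT): *Aldh1a1*, *Aldh1a2*, *Aldh1a3*, *Cyp26b1*, *Crabp1*, *Crabp2*, *Rarb*, *Rarg* and *Rxra*. They were found by matching the mouse Ensembl identifiers of the count table to these symbols, and all 9 were present among the 28777 genes listed. RNA came from micro-dissected OFTs of embryos at E13.5 (embryonic day) on a C57/BL6J background. In 3 libraries the label is *Notch1*+/-; *Nos3*-/-, a germline loss of one copy of *Notch1* and of both copies of *Nos3* in every cell of the embryo. In the other 3 the label is wildtype, and these were littermates without either allele. Each library pooled 3 OFTs, 18 in all. The study asked which transcripts differ in the compound mutant OFT before malformations are seen, and the comparison here is the mutant against the wildtype label for the retinoid genes.

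Retinoic acid is made from vitamin A in steps. Retinol is first oxidised to retinal, and the ALDH1A enzymes oxidise retinal to retinoic acid. The CYP26 enzymes break retinoic acid down, the CRABP proteins carry it inside the cell, and it acts as the ligand of the RAR receptors, which bind DNA as pairs with RXR receptors and often at direct repeats of a short motif. In the embryonic heart retinoic acid is known from the patterning of the heart tube and from the epicardium, where *Aldh1a2* is the main synthesising enzyme, and both a lack and an excess of it are known to disturb OFT development.

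Library depth was between 34729103 and 44387490 counts, and levels are given as CPM, the counts of a gene scaled to a common library size by TMM. *Notch1*, a deleted gene, had 74.3, 88.2 and 83.6 CPM in wildtype replicates 1 to 3 and 155, 161 and 139 CPM in mutant replicates 1 to 3 (log2 fold change 0.89, edgeR adjusted p = 0.0313). This goes against its label, so the libraries are named by label throughout. *Nos3* had 31.8, 47.2 and 48.1 CPM under the wildtype label and 22.1, 22.0 and 20.4 CPM under the mutant label. Wildtype replicate 1 stood apart from the other wildtype libraries, since on the first principal component, with 32.2% of the variance, it had −12.9, against 44.8 and 74.3 for the other two and −49.0 to −15.0 for the mutant label. All 12 myocardial markers, such as *Myh6* and *Ttn*, and all 10 endothelial, 10 epicardial and 11 mesenchymal markers averaged 1 CPM or more. Markers of the foregut endoderm summed to between 0.517 and 1.204 CPM, and *Nkx2-1*, *Foxa2*, *Shh*, *Sftpc* and *Pax8* were not among the genes tested.

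None of the 9 genes passed the test across all genes (0 at an edgeR adjusted p of at most 0.05), where 6 of the 28157 genes tested did, or 0.0213% in either direction. The limma-voom fit called 0 of them as well. The 4 genes with an unadjusted edgeR p under 0.05 were *Cyp26b1*, *Rarg*, *Aldh1a3* and *Crabp2*. All 4 had the higher mean under the mutant label, and over all genes 8.23% met that rule in that direction and 7.83% in the other. Of the 16655 genes that averaged 1 CPM or more, as all 9 did, 1693 met it in that direction and 1978 in the other. The 3 libraries of one label lay entirely above those of the other for 2 of the 9, *Cyp26b1* and *Aldh1a3*, where 10.7% of all genes tested did so in that direction. DESeq2's Wald test called *Cyp26b1* and *Rarg*, 2 of 9 and both higher under the mutant label, beside 2.24% of the 18327 genes to which it gave an adjusted p. The log2 fold change was positive for 7 members and negative for 2, where 51.2% of all genes had a positive one, and its median was 0.38, while the median over all genes tested was 0.01. Among the 16655 genes that averaged 1 CPM or more, 7539 had a positive one and the median was −0.03. The median of the 9 varied with single libraries but stayed positive. It ran from 0.21 without wildtype replicate 3 to 0.65 without wildtype replicate 1, and leaving out mutant replicate 2 gave 0.23.

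**Figure D1:**
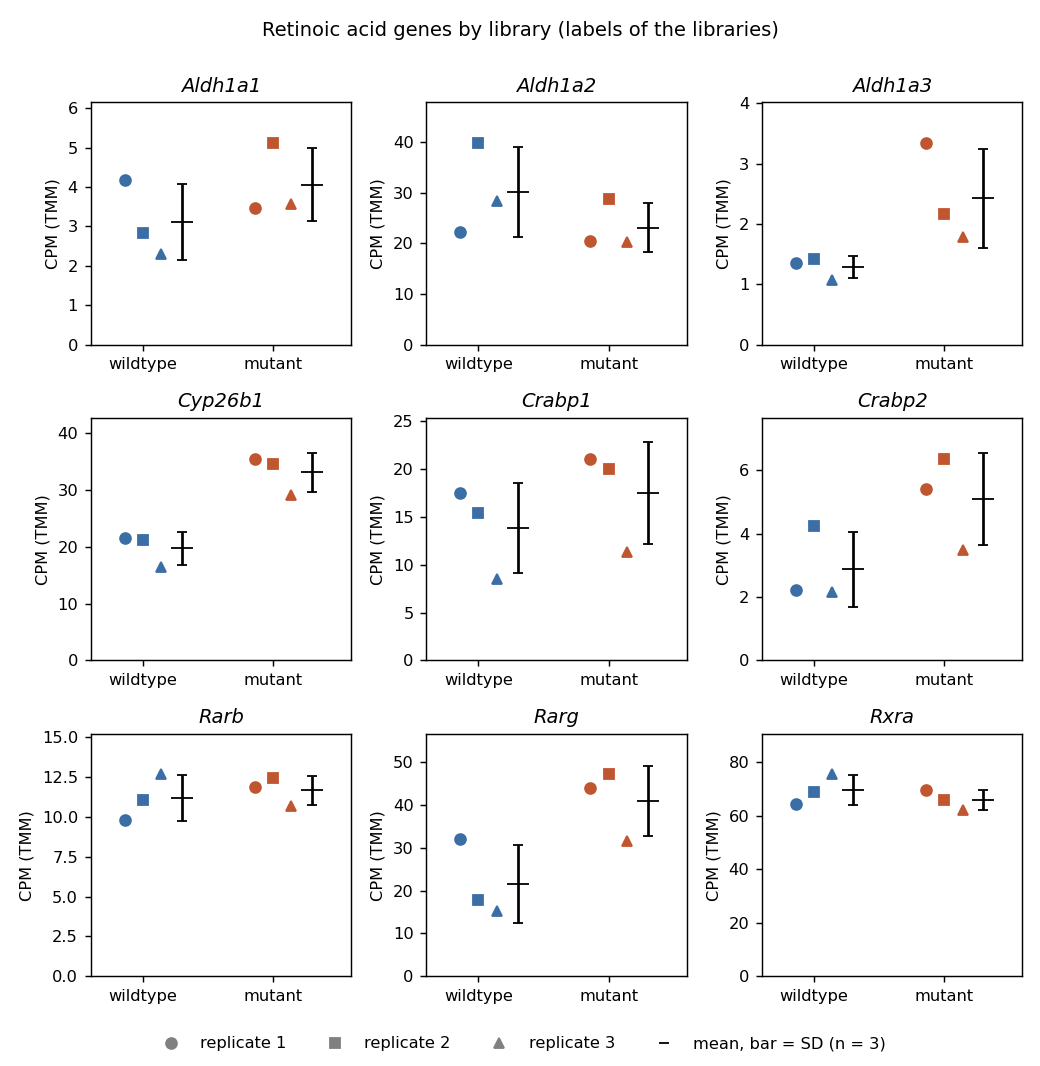
Level of each of the 9 genes in each of the 6 libraries, in CPM, with a point for each library, shaped by replicate number and coloured by label, beside the group mean and SD (n = 3). For *Cyp26b1* the wildtype points end at 21.6 CPM and the mutant points begin at 29.1 CPM, while for *Rarg* wildtype replicate 1 sits at 32.0 CPM, above the lowest mutant library at 31.6 CPM.

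Levels of different genes were compared per length, as TPM, the length-scaled share of transcripts, from the counts and the exon length of each gene. TPM was not scaled by TMM, so its differences between labels can depart from the tested fold changes. For *Rxra* the means under the wildtype and mutant labels were 20.8 and 22.9 TPM, but 69.6 and 65.7 CPM. *Crabp1* had the highest mean over the 6 libraries (35.3 TPM), followed by *Rxra* (21.9 TPM), *Aldh1a2* (20.5 TPM), *Rarg* (13.4 TPM), *Cyp26b1* (8.94 TPM), *Crabp2* (5.45 TPM), *Rarb* (3.84 TPM), *Aldh1a1* (1.31 TPM) and *Aldh1a3* (0.730 TPM). Only 1 pair of neighbours in this order had ranges over the libraries that did not overlap: *Rarb*, whose lowest library had 3.20 TPM, and *Aldh1a1*, whose highest had 2.05 TPM. *Crabp1* spread the widest in TPM, from 16.5 in wildtype replicate 3 to 50.2 in mutant replicate 1, and so its first place was not held in every library.

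**Figure D2:**
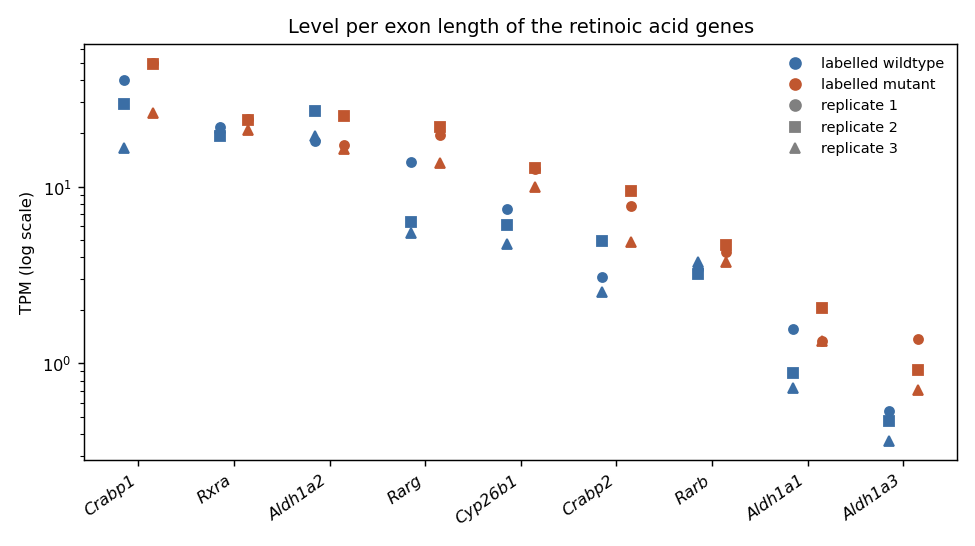
Length-scaled level of the 9 genes in TPM on a log axis, ordered by their mean, with a point for each library coloured by label and shaped by replicate number. The order runs from *Crabp1* at a mean of 35.3 TPM to *Aldh1a3* at 0.730 TPM, and the points of neighbouring genes overlap except between *Rarb* and *Aldh1a1*. TPM was not scaled by TMM, so differences between labels can depart from the tested fold changes.

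Of the 3 ALDH1A enzymes, *Aldh1a2* made up most of the transcript in every library, and its values overlapped between labels. *Aldh1a2* (ENSMUSG00000013584, mm10 chr9:71215789-71296243) had 22.2, 39.9 and 28.4 CPM in wildtype replicates 1, 2 and 3 and 20.4, 28.7 and 20.2 CPM in mutant replicates 1, 2 and 3. Wildtype replicate 2 was the highest, and mutant replicate 2 exceeded wildtype replicates 1 and 3. The group means were 30.2 ± 8.97 CPM (SD, n = 3) and 23.1 ± 4.86 CPM (SD, n = 3), a log2 fold change of −0.38 with a standard error of 0.20 (edgeR adjusted p = 0.379), and leaving out wildtype replicate 2 gave −0.13 where leaving out mutant replicate 2 gave −0.57. Markers of the epicardium, where this enzyme is known to be active, summed to 397, 558 and 412 CPM under the wildtype label and 446, 528 and 386 CPM under the mutant label, and wildtype replicate 2 was the highest for them too. Of these 10 markers 3 had a positive log2 fold change, and *Sulf1* (0.20) alone held 114 to 174 CPM and 137 to 218 CPM. Divided by 1000 CPM of these markers, *Aldh1a2* was 55.8, 71.4 and 69.0 in the wildtype libraries and 45.9, 54.5 and 52.2 in the mutant libraries, which do not overlap, with a ratio of means of 0.778. Divided by mesenchymal or by endothelial markers it overlapped, with ratios of 0.480 and 0.837. These scalings were chosen after the data were seen and have no test.

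The other ALDH1A genes were low. *Aldh1a3* (ENSMUSG00000015134, chr7:66390890-66427517) had 1.35, 1.42 and 1.08 CPM under the wildtype label and 3.35, 2.16 and 1.78 CPM under the mutant label, so that every mutant library was above every wildtype library. The log2 fold change was 0.92 with a standard error of 0.29 (edgeR adjusted p = 0.213), a fold of 1.89 with a 95% interval from 1.21 to 2.93. *Aldh1a1* (ENSMUSG00000053279, chr19:20492715-20643465), the isoform best known from eye and liver, had 4.18, 2.84 and 2.31 CPM against 3.47, 5.12 and 3.58 CPM. The groups overlapped through wildtype replicate 1, and the log2 fold change was 0.38 with a standard error of 0.25 (edgeR adjusted p = 0.490) and ran from 0.17 to 0.65 with 1 library left out, lowest without mutant replicate 2 and highest without wildtype replicate 1. *Aldh1a1* has a near-identical paralog, *Aldh1a7*, and reads may have been split between them, so both values are uncertain. *Aldh1a7* had 2.47, 1.37 and 1.42 CPM under the wildtype label and 3.40, 2.45 and 3.16 CPM under the mutant label, where wildtype replicate 1 was again the library that overlapped (log2 fold change 0.77, edgeR adjusted p = 0.240).

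*Cyp26b1* (ENSMUSG00000063415, chr6:84571414-84593908), which breaks retinoic acid down, had the smallest p-value of the 9 genes. Its level was 21.62, 21.25 and 16.39 CPM in wildtype replicates 1, 2 and 3 and 35.53, 34.66 and 29.12 CPM in mutant replicates 1, 2 and 3. All 3 mutant libraries were above all 3 wildtype libraries, and the exact permutation test gave p = 0.1, the smallest that 3 libraries against 3 allow. The means were 19.8 ± 2.92 CPM and 33.1 ± 3.48 CPM (SD, n = 3 each), a log2 fold change of 0.74 with a standard error of 0.13 and a fold of 1.67 with a 95% interval from 1.37 to 2.04. The edgeR adjusted p was 0.128, and DESeq2's adjusted p was 0.000456. With the replicate number of the titles as a block edgeR called it at an adjusted p of 0.000497 (log2 fold change 0.75), where 3.18% of all genes were called higher under the mutant label. With the block by the sample descriptions, which exchange wildtype replicates 2 and 3, the edgeR adjusted p was 0.0348 (log2 fold change 0.75). That block called 0.295% of all genes in either direction. Without wildtype replicate 1 *Cyp26b1* was called at an edgeR adjusted p of 0.0188 (log2 fold change 0.81), where 4.15% of all genes were called higher under the mutant label. With any other single library left out it was not called (edgeR adjusted p from 0.0917 to 0.583, log2 fold change from 0.63 to 0.83).

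The retinoic acid carriers *Crabp1* and *Crabp2* both had overlapping groups. *Crabp2* (ENSMUSG00000004885, chr3:87948666-87953376), which is known to hand retinoic acid to the receptors, had 2.23, 4.24 and 2.16 CPM under the wildtype label and 5.42, 6.38 and 3.50 CPM under the mutant label. Only mutant replicate 3 and wildtype replicate 2 were out of order. The log2 fold change was 0.82 with a standard error of 0.30 (edgeR adjusted p = 0.244), and the 95% interval of the fold of 1.77 ran from 1.12 to 2.80. With the replicate block by the sample titles the adjusted p from edgeR was 0.0145 (log2 fold change 0.85), and with the block by the sample descriptions, which exchange wildtype replicates 2 and 3, it was 0.224. *Crabp1* (ENSMUSG00000032291, chr9:54764748-54773110), known from neural crest cells, had 17.55, 15.39 and 8.57 CPM under the wildtype label and 21.11, 20.04 and 11.38 CPM under the mutant label. Replicate 3 was the lowest library within each label, and the log2 fold change of 0.34 had a standard error of 0.27 (edgeR adjusted p = 0.571). Leaving out wildtype replicate 3 gave 0.09, and leaving out mutant replicate 3 gave 0.57. Of the 7 markers of neural crest and glia that were tested, 5 had a positive log2 fold change. The 7 summed to 97.3 to 171 CPM under the wildtype label and 76.3 to 120 CPM under the mutant label. *Ednrb* made up most of that sum in the wildtype libraries and in mutant replicate 3. It had 53.5, 85.7 and 143 CPM against 40.5, 25.8 and 79.3 CPM (log2 fold change −0.95), so the lower sum under the mutant label went with this gene. The part of these markers in the *Crabp1* values was not tested.

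The receptors differed among themselves. *Rarg* (ENSMUSG00000001288, chr15:102234938-102257517) had 32.0, 17.7 and 15.1 CPM in wildtype replicates 1, 2 and 3 and 43.9, 47.1 and 31.6 CPM in mutant replicates 1, 2 and 3. Wildtype replicate 1 was above mutant replicate 3 and the other wildtype libraries were far below every mutant library. The log2 fold change was 0.92 with a standard error of 0.25, a fold of 1.89 with a 95% interval from 1.29 to 2.76 (edgeR adjusted p = 0.194, DESeq2 adjusted p = 0.0140). The size of this difference depended on wildtype replicate 1, without which the log2 fold change was 1.31 and the edgeR adjusted p was 0.0125. Leaving out any other single library gave log2 fold changes of 0.72 to 1.07, and *Rarg* was then not called (edgeR adjusted p from 0.121 to 0.642). With the replicate block by titles the edgeR adjusted p was 0.000467 (log2 fold change 0.97), and with that by descriptions it was 0.0299. *Rxra*, the shared partner of the RAR receptors (ENSMUSG00000015846, chr2:27676440-27762957), had 64.4, 68.9 and 75.4 CPM under the wildtype label and 69.5, 65.7 and 62.0 CPM under the mutant label. These values overlapped, and the log2 fold change was −0.08 with a standard error of 0.10 (edgeR adjusted p = 0.723, 95% interval of the fold from 0.813 to 1.10). *Rxra* lies 1.16 Mb from the targeted *Notch1* on chromosome 2, and any part of that linkage in its value was not tested.

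*Rarb* (ENSMUSG00000017491, chr14:16430839-16819156) is a receptor whose own gene is known to be switched on by retinoic acid. It had 9.81, 11.03 and 12.66 CPM under the wildtype label and 11.9, 12.5 and 10.7 CPM under the mutant label. The highest library was wildtype and the lowest was wildtype, and the log2 fold change was 0.07 with a standard error of 0.14 (edgeR adjusted p = 0.852, 95% interval of the fold from 0.849 to 1.29). Without wildtype replicate 1 its sign turned (log2 fold change −0.02). Its exons overlap those of *Top2b*, on the other strand, over 1793 of 5265 bases, and the sources used here do not say whether counting used the strand, so its level is uncertain.

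*Rarb* and *Cyp26a1*, another enzyme of retinoic acid breakdown, are known to be induced by retinoic acid through repeats near their start, and the stretches below are shown because each holds a match to such a repeat, with the 2 copies in capitals. They are the 100 bases before the annotated start, 5′ to 3′ in the direction of the gene, from RefSeq on GRCm38.p6, at chr14:16575477-16575576 on the minus strand for *Rarb* and chr19:37697708-37697807 on the plus strand for *Cyp26a1*.
Rarb: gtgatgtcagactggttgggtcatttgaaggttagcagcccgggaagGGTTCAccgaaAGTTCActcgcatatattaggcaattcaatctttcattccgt
Cyp26a1: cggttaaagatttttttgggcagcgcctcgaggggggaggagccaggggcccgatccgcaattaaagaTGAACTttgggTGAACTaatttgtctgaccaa
In *Rarb* the repeat lies at bases −53 to −37 from the start, and in *Cyp26a1* it lies at bases −32 to −16 on the other strand, where it reads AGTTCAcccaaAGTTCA. Both have a spacing of 5 bases between the copies. The search covered direct repeats whose copies read AGGTCA, or in another form GGTTCA, or in a further form AGTTCA, or in the last form GGGTCA, in all pairs, with a spacing of 5, 2 or 1 bases, on both strands of windows of 300 bases around each start. A repeat spaced by 5 was found in 32 of 32851 windows of all genes (0.0974%), and any of these repeats in 193 (0.588%). For the 9 genes, 7 had an entry with 10 windows in all, and *Rarb* was the only one with a repeat. Of the other retinoid genes, 42 of 59 had an entry with 60 windows in all, and *Cyp26a1* and *Bco1* held one. These are matches of letters, and no binding was measured.

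**Figure D3:**
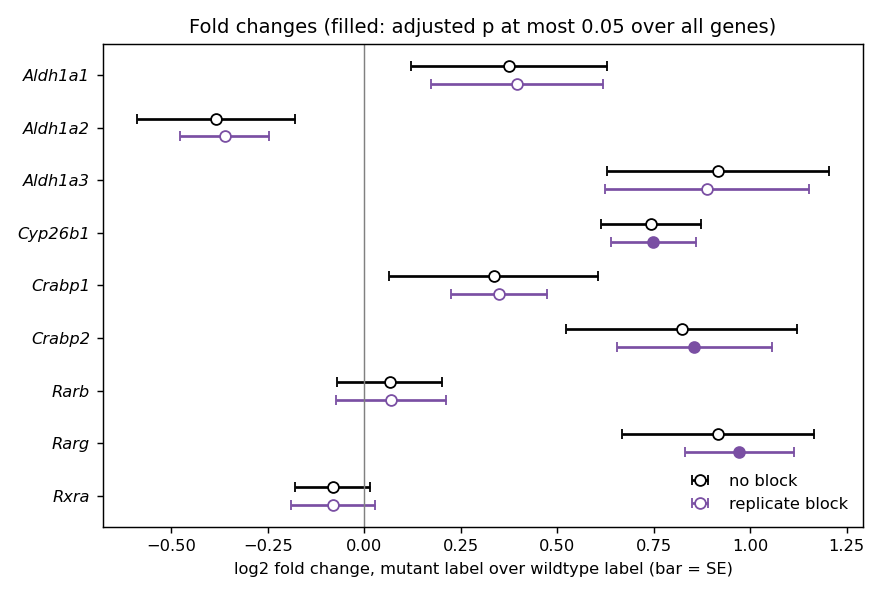
Log2 fold change of each of the 9 genes, mutant over wildtype label, from edgeR without a block (black) and with the replicate number as a block (purple); bars are standard errors and filled points passed the adjusted p of 0.05 over all genes. Without the block no point is filled, and with it *Cyp26b1* (0.75), *Crabp2* (0.85) and *Rarg* (0.97) are.

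The 59 other retinoid genes were listed by role, and all had enough reads to be tested, 40 of them averaging 1 CPM or more. None was called by edgeR at an adjusted p of at most 0.05 (0 genes) or by limma-voom, and 8 were higher and 5 lower under the mutant label at an unadjusted p under 0.05, beside 8.23% and 7.83% of all genes. DESeq2 called 3, *Rai1* higher and *Rbp4* and *Tgm2* lower, beside 4.05% of all genes with its adjusted p. Several of the 59, such as *Stra6* and *Cyp26c1*, were given no adjusted p by DESeq2, so fewer than 59 are comparable with that share. The log2 fold change was positive for 33 and negative for 26, with a median of 0.02 that turned to −0.03 without wildtype replicate 3. The groups were apart for 4 genes higher and 3 lower under the mutant label, where 10.7% and 8.94% of all genes tested were. With the replicate block 7 were called, and without wildtype replicate 1 the number was 14, where 5.6% and 9.45% of all genes were called. The block by the numbers of the sample descriptions called 0 of the 59, so each blocked call named here among them was lost with it.

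Enzymes that oxidise retinol or reduce retinal had differences in both directions. Of 14 such genes, 6 had a positive and 8 a negative log2 fold change. *Rdh10*, the main embryonic retinol dehydrogenase, had 8.96 ± 0.875 CPM under the wildtype label and 8.76 ± 1.72 CPM under the mutant label (SD, n = 3 each, log2 fold change −0.03, edgeR adjusted p = 0.945). *Dhrs3*, which reduces retinal back to retinol and is known to respond to retinoic acid, had 14.6, 20.1 and 15.8 CPM against 17.7, 24.1 and 16.4 CPM (log2 fold change 0.21, edgeR adjusted p = 0.578). The groups did not overlap for *Rdh14*, with 26.9 to 31.3 CPM under the wildtype label and 20.9 to 24.4 CPM under the mutant label (log2 fold change −0.37, edgeR adjusted p = 0.196), for *Adh5*, an alcohol dehydrogenase, with 122 to 148 CPM and 111 to 120 CPM (log2 fold change −0.26, edgeR adjusted p = 0.264), and for *Rdh5*, which was low, with 0.863 to 1.44 CPM and 1.59 to 2.13 CPM (log2 fold change 0.73, edgeR adjusted p = 0.255).

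The other enzymes of retinoic acid breakdown were scarcer than *Cyp26b1*. *Cyp26a1* had 3.67, 1.95 and 0.678 CPM in wildtype replicates 1, 2 and 3 and 4.40, 5.55 and 3.05 CPM in mutant replicates 1, 2 and 3. Wildtype replicate 1 lay within the mutant range, and the log2 fold change of 1.02 had a standard error of 0.45 (edgeR adjusted p = 0.299). It was called with the replicate block by titles (log2 fold change 1.21, edgeR adjusted p = 0.0117), not with that by descriptions (edgeR adjusted p = 0.188), and called without wildtype replicate 1 (log2 fold change 1.69, edgeR adjusted p = 0.0375). *Cyp26c1* was near the floor of 3 counts in several libraries, with 0 to 0.135 CPM under the wildtype label and 0.0265 to 0.300 CPM under the mutant label.

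None of the retinol carriers and other receptors was called by edgeR (0 genes). *Stra6*, a retinol importer, was at 0.186 to 0.325 CPM in all libraries. *Rbp4*, the carrier of retinol in blood and a liver product, was singled out after its values were seen: it had 0.0900, 3.54 and 0.801 CPM under the wildtype label and 0.150, 0.320 and 0.159 CPM under the mutant label. The 8 liver markers, which include *Alb* and *Afp*, summed to 2.497, 100.2 and 28.8 CPM under the wildtype label and 3.848, 6.804 and 2.122 CPM under the mutant label, and were high in the same libraries, wildtype replicates 2 and 3. Their part in the *Rbp4* difference was not tested. Among receptors, *Rara* had 39.0 ± 3.99 CPM and 42.5 ± 0.666 CPM (SD, n = 3 each, log2 fold change 0.13, edgeR adjusted p = 0.572), *Rxrb* had a log2 fold change of 0.12 (edgeR adjusted p = 0.629) and *Rxrg*, at about the level of 1 CPM, had −0.01 (edgeR adjusted p = 0.994). For *Ppard*, a receptor that also binds fatty acids, the wildtype libraries had 17.4 to 19.6 CPM and the mutant libraries 22.3 to 23.4 CPM, without overlap (log2 fold change 0.29, edgeR adjusted p = 0.233).

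Genes known to respond to retinoic acid also had differences in both directions. Of the 23 listed, 17 had a positive and 6 a negative log2 fold change, with a median of 0.16, where 51.2% of all genes had a positive one. At an unadjusted p under 0.05, 4 were higher and 1 lower, beside 8.23% and 7.83% of all genes. The transglutaminase *Tgm2* had 361, 437 and 512 CPM under the wildtype label and 318, 294 and 320 CPM under the mutant label, without overlap (log2 fold change −0.49, edgeR adjusted p = 0.194, DESeq2 adjusted p = 0.0205). *Rai1*, named as retinoic acid induced, had 81.9, 72.8 and 75.5 CPM and 111, 108 and 90.5 CPM, also without overlap (log2 fold change 0.43, edgeR adjusted p = 0.184, DESeq2 adjusted p = 0.0230). With the replicate block *Tgm2* and *Rai1* were both called, in opposite directions, at edgeR adjusted p-values of 0.0209 and 0.0226, and with the block by descriptions neither was (edgeR adjusted p = 0.176 and 0.152). Corrected for GC content and length as well, with the block by titles, *Rai1* had a log2 fold change of 0.18 (edgeR adjusted p = 0.155).

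The cell type markers differed between the libraries as well. The OFT was sequenced as whole tissue, so fewer cells of a type and less RNA per cell cannot be told apart. The summed mesenchymal markers were 6571, 4429 and 3450 CPM in wildtype replicates 1, 2 and 3 and 7124, 7556 and 6251 CPM in mutant replicates 1, 2 and 3, and wildtype replicate 1 was within the mutant range. All 11 had a positive log2 fold change, with a median of 0.57; edgeR called 0 of them and DESeq2 1, while 7 were under 0.05 before adjustment in edgeR. The 12 myocardial markers all had a negative log2 fold change, with a sum of 22582 to 30834 CPM under the wildtype label and 16542 to 21875 CPM under the mutant label, and so did the 10 blood markers, with 5406 to 11902 CPM and 6164 to 6316 CPM. By edgeR 0 of these were called, and DESeq2 called 4 in each list. Vascular smooth muscle markers summed to 2894 to 3974 CPM and 3177 to 5703 CPM, neuronal markers to 42.4 to 61.9 CPM and 57.5 to 74.9 CPM, and macrophage markers to 111 to 175 CPM and 120 to 143 CPM, all with overlap. In the smooth muscle sums *Eln* (log2 fold change 0.87) held 757 to 2262 CPM and 1455 to 4151 CPM. Of these 8 markers 5 had a positive log2 fold change, while *Acta2*, *Cnn1* and *Myocd* had negative ones. Per 1000 CPM of mesenchymal markers, *Rarg* was 4.865, 3.998 and 4.385 under the wildtype label and 6.16, 6.24 and 5.06 under the mutant label, without overlap, with a ratio of means of 1.32. On the same scale *Cyp26b1* was 3.29, 4.80 and 4.75 against 4.99, 4.59 and 4.66, which overlap, with a ratio of 1.11. *Aldh1a3* and *Crabp2* overlapped as well, with ratios of 1.24 and 1.13. Per 1000 CPM of endothelial markers, which summed to 1000 to 1390 CPM and 1090 to 1219 CPM, *Cyp26b1* and *Aldh1a3* were apart with ratios of 1.76 and 2.01. *Rarg* and *Crabp2* overlapped on that scale, with a ratio of 1.93 for each. Per 1000 CPM of epicardial markers, of which *Sulf1* was a large part as given above, *Cyp26b1*, *Aldh1a3*, *Crabp2* and *Rarg* were all apart, with ratios of 1.67, 1.89, 1.81 and 1.81. These scalings were chosen after the data were seen and carry no test, and the part of the mesenchymal markers in the values of the 4 genes was not tested.

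**Figure D4:**
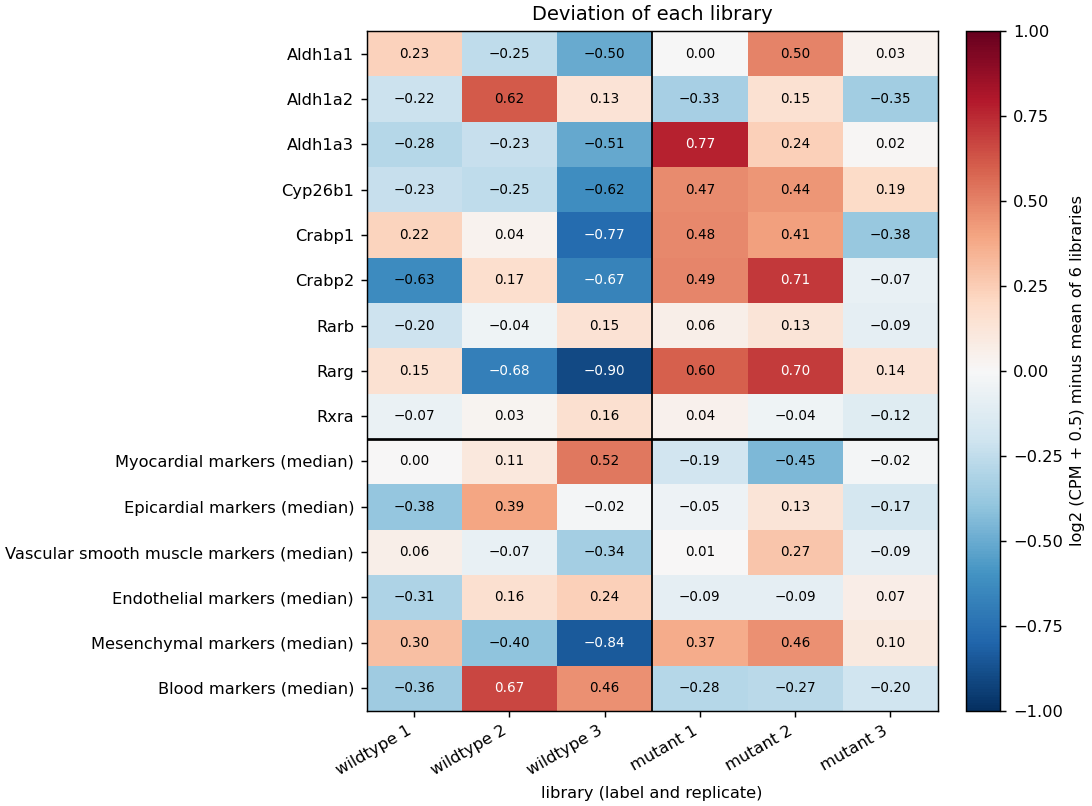
Deviation of each library from the mean of the 6 libraries, in log2 of CPM plus 0.5, for the 9 genes and, under the line, the median over the genes of 6 marker lists; red is above the mean and blue below it. *Rarg* runs from −0.90 in wildtype replicate 3 to 0.70 in mutant replicate 2, and the mesenchymal markers from −0.84 to 0.46 in the same libraries.

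Wildtype replicate 3 was the lowest library for 6 of the 9 genes, beside 23.8% of the 16655 genes that averaged 1 CPM or more. The highest library was mutant replicate 1 for 3 genes and mutant replicate 2 for another 3, beside 11.7% and 17.8% of those genes. For each of the 9, the genes whose profile over the 6 libraries was most like it were taken among 13088 or 13089 others that averaged 5 CPM or more, by the root mean square difference of log2 CPM centred on each gene's mean. *Cyp26b1* was nearest to *Cbarp*, *Tcirg1* and *Cacna1g* (differences of 0.0599, 0.0735 and 0.0773), and its own root mean square deviation was 0.399. *Rarg* was nearest to *3110039I08Rik*, *Adarb1* and *Prelp* (0.0819, 0.0849 and 0.0905, against its own 0.603). *Crabp1* was nearest to *Trim12a* at 0.0440, and *Aldh1a2* to *Cd82* at 0.0950, then *Wdr86* and *Slc9a3r1*. For *Crabp2*, the first was *Mst1r* at 0.160, and for *Aldh1a3* it was *Atxn7l2* at 0.131.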

How the data were processed

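Total RNA was sequenced from 6 libraries of E13.5 mouse OFT, grouped by the genotype and titles of the labels. The authors made stranded, ribosomal RNA depleted paired-end libraries, aligned reads to mm10 with TopHat2 2.1.0 and Bowtie2 and counted reads on exons with GenomicAlignments; the deposited table holds raw, unscaled counts, and DESeq2 1.26.0 stands in the submitters' processing notes. The annotation release, the use of strand and the treatment of overlapping genes are not given in the sources used here. No mitochondrial gene is listed.

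The tests ran in edgeR 4.0.16 under R 4.3.3. Genes with 5 or fewer reads in all were left out, as in the study's methods, and 28157 were fitted by label with TMM scaling and the quasi-likelihood test, adjusted by Benjamini-Hochberg over all of them with a threshold of 0.05. Single genes were also compared by a two-sided exact permutation test of log2(CPM + 0.5), which cannot go below p = 0.1. TPM used exon lengths of the GENCODE mm10 annotation, which holds 28723 of the 28777 identifiers. DESeq2 1.42.0 and limma 3.58.1, other scalings and filters, a correction for GC content and length, a replicate block and each library left out were alternatives. The code was tested on simulated data.

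The 9 genes, the lists of 59 retinoid genes and 11 marker lists were chosen with earlier results of these data known. Named besides the 9 are retinoid genes that were called or had groups apart at a mean of 1 CPM or more, 10 fixed retinoid genes, the targeted genes and the 3 genes most alike to each member. Some genes that this rule names are not reported here. In a check of whether replicate numbers pair the libraries, the deviations of same-numbered libraries from their group means correlated at 0.101, 0.152 and 0.458 over 16655 genes, while wildtype replicate 1 and mutant replicate 2 correlated at 0.318. Since every same-numbered value was over 0.1 the numbers were taken as pairs, although no source used here ties a number to a litter or day. For wildtype replicates 2 and 3, titles and descriptions give opposite library numbers, and the titles were used. By the descriptions, wildtype replicate 3 would pair with mutant replicate 2 and wildtype replicate 2 with mutant replicate 3. Those pairs correlated at −0.487 and −0.118, so by the same rule the description numbers would not have been taken as pairs. The blocked results therefore depend on which numbers are right.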

Additional observations from a re-analysis of the deposited data

How the results depend on the processing

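The number of genes called moved from 6 (0.0213% of all genes) to 742 with DESeq2's Wald test (4.05%) and to 1577 with the replicate block (5.6%). It moved to 2206 (7.83%) with the block and a correction for GC content and length, and to 2 at an adjusted p of at most 0.01. Leaving out single libraries gave 1 to 2593, the latter (9.45%) without wildtype replicate 1. For the 9 retinoid genes the number called was 0, and it was 2 with DESeq2, 3 with the block, 4 with the block and the correction, which added *Rxra* at a log2 fold change of −0.26 (edgeR adjusted p = 0.0497), and 0 to 2 with 1 library left out. For the 59 others it was 0, and then 3, 7, 8 and 0 to 14. The 2 members and the 14 others were called without wildtype replicate 1, and leaving out any other single library gave 0 of each. A block by the numbers of the sample descriptions, added after seeing the data, gave 83 genes (0.295%), 2 members (*Cyp26b1* and *Rarg*) and 0 of the 59 others. The other settings tried kept 0 members called. The correction alone turned the 5 higher and 1 lower calls into 4 and 2, and with the block 942 were higher and 1264 lower, against 895 and 682 with the block only. Over 16 alternatives the log2 fold change of *Cyp26b1* was 0.59 to 0.84 and that of *Rarg* 0.72 to 1.31. *Rarb* was −0.020 to 0.164 with 1 library left out, negative without wildtype replicate 1, and *Rxra* turned to 0.025 with scaling by library size only, which moved the median of all genes to 0.11; the cause was not tested. The replicates are pools of embryos whose litters are not stated, and 3 libraries a label limit the precision.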

Other observations

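The balance of synthesis and breakdown transcripts was computed per library in TPM, in 7 ratios chosen after the data were seen and given without a test. *Cyp26b1* over *Aldh1a2* was 0.412, 0.225 and 0.244 in wildtype replicates 1, 2 and 3 and 0.735, 0.510 and 0.610 in mutant replicates 1, 2 and 3. The summed *Cyp26a1* and *Cyp26b1* over the summed *Aldh1a1*, *Aldh1a2* and *Aldh1a3* was 0.538, 0.268 and 0.257 against 0.847, 0.653 and 0.696. In both ratios every mutant library was above every wildtype library, and wildtype replicate 1 was the nearest to the mutant range. Both hold *Cyp26b1*, whose own groups were already apart, over *Aldh1a2*, whose mean was lower under the mutant label. They are therefore not independent of the values of these genes given above.

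*Aldh1a2* made up 89.6%, 95.2% and 94.7% of the summed ALDH1A transcripts under the wildtype label and 86.3%, 89.4% and 88.9% under the mutant label, and these ranges do not overlap. *Rarg* made up 43.2%, 27.2% and 22.5% of the summed RAR transcripts in the wildtype libraries and 45.8%, 47.9% and 38.8% in the mutant libraries, which overlap through wildtype replicate 1. The share of *Rarb* was 10.7% to 15.3% and 10.03% to 10.62%, without overlap, while its CPM overlapped. The sum below it holds *Rarg*, whose mean was higher under the mutant label. The levels of *Rarb* and *Aldh1a1* are uncertain, as given above, and so are the RAR and ALDH1A shares that hold them. The share of *Crabp2* in both CRABP transcripts overlapped, and the share of *Rxra* in the RXR transcripts was 49.5% to 53.1% and 46.7% to 49.2%, without overlap. These ratios share genes with each other, and the shares are not independent of the values of their genes. Of the other genes known to respond to retinoic acid, *Hoxa3*, *Zfp503* and *Rai14*, singled out after their values were seen, were called with the replicate block at log2 fold changes of 1.25, 0.67 and 0.59 (edgeR adjusted p = 0.00985, 0.00757 and 0.0144). None of the 3 was called on all libraries without a block or with the block by the sample descriptions (edgeR adjusted p = 0.260, 0.128 and 0.194), and without wildtype replicate 1 *Zfp503* and *Rai14* were called (edgeR adjusted p = 0.0249 and 0.0247).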
